A study of Mus musculus with 14 samples.

Results

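The miR-200 family was followed through fluorescence-sorted cell populations of the mouse small intestine. Its members were taken by name: the entries of the deposited table at the annotated start of a mature miRNA whose names begin with mir-200a, mir-200b, mir-429, mir-200c or mir-141. This gave 10 of the 2030 entries, 6 from the cluster of hairpins Mir200b, Mir200a and Mir429, called the Mir200b cluster here, and 4 from that of Mir200c and Mir141, the Mir200c cluster. All libraries came from small intestine of C57BL/6J mice labelled Sox9eGFP, a transgene whose green fluorescence follows the activity of Sox9, so every group carries it and there is no group without it. There were 3 libraries each of the sorted populations High, Low, Sublow and Negative, named by their fluorescence, and 2 of Non-sorted cells, 14 in all. As background on this mouse line, crypt stem cells are known to be rich in the Low fraction and transit-amplifying progenitors in Sublow, while enteroendocrine cells are found in High and most differentiated epithelium in Negative. No age or treatment is given, and whether the libraries of a group are from different animals is not stated. The p-values measure a spread between libraries, which may be technical. The question was how the family and each of its clusters varied between these populations.

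MicroRNAs of the miR-200 family are processed from short hairpins into mature strands, usually with 1 arm of the hairpin far more abundant than the other. Loaded into Argonaute, a mature strand pairs with target mRNAs mainly through its seed, bases 2 to 8 from the 5′ end, and lowers their output. The family is best known for repressing Zeb1 and Zeb2, transcription factors that silence epithelial genes such as E-cadherin, and these factors in turn repress the miR-200 genes. It is abundant in epithelia, the gut included, and scarce in mesenchymal cells.

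The mature sequences show how the clusters overlap in what they can recognise. All 10 members were matched to RefSeq (GRCm38.p6). In the 5 abundant 3p arms, written 5′ to 3′ with the seed in capitals, 1 seed is shared by members of both clusters and so is the other:

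mmu-mir-200b-3p: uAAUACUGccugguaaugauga
mmu-mir-429-3p: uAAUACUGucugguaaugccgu
mmu-mir-200c-3p: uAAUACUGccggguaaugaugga
mmu-mir-200a-3p: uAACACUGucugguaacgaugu
mmu-mir-141-3p: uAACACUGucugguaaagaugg

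The seeds differ at a single base, written U4C from miR-200b-3p to miR-200a-3p with positions counted from the 5′ end. Each cluster therefore carries both seeds, and the closest relatives lie in different clusters. Over the first 22 bases miR-200b-3p and miR-200c-3p differ at 2 positions (U11G and A22G), and miR-200a-3p and miR-141-3p also at 2 (C17A and U22G). Members of 1 cluster differ from each other at 4 positions. Of the 1738 mature miRNAs in the reference, 0 outside the family share either 3p seed. How reads that fit near-identical members were assigned is not given in the sources used here, so some reads may have moved between the members of such a pair.

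The 5p arms that were above 0 in every library are shown for the arm ratios given further on:

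mmu-mir-200b-5p: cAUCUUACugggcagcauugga
mmu-mir-200a-5p: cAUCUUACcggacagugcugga
mmu-mir-141-5p: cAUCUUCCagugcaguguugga

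The table gives no coordinates. In GRCm38.p6 the hairpins Mir200b, Mir200a and Mir429 lie in this order on the minus strand of chromosome 4, chr4:156053905-156055750, a span of 1846 bases inside the protein-coding gene Ttll10 on the same strand and the non-coding gene Gm13648. Mir429 overlaps an exon of Gm13648, and neither Mir200b nor Mir200a overlaps an annotated exon. Mir200c and Mir141 lie on the minus strand of chromosome 6, chr6:124717914-124718390, a span of 477 bases that overlaps the non-coding gene Gm15884, and Mir141 overlaps an exon of Gm29008, a locus of unverified type.

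Values were RPM over miRNA entries, that is reads scaled to a total of 1000000 per library. Depth was estimated from the steps between low values, on the assumption that the smallest listed value of a library is about 10 reads. On that assumption it was 1.89 to 16.38 M reads (M, 1000000), with the smallest listed values at 9.98 to 10.91 reads. A value of 0 was read as less than the smallest listed value of the library, which was 0.62 to 5.55 RPM. The number of reads this stands for was not tested. In 7 libraries miR-295-3p was listed at 395 to 928 RPM (High 2, Low 2, Sublow 2, Negative 1, Negative 2 and both Non-sorted), and in the other 7 it was at 0. Adding this split to the model changed 1 of 56 member calls, that of miR-141-5p in High against Negative (adjusted p = 0.0504 in limma). Sequencing lanes, as the sample names give them, were shared unevenly by the populations, and the names of High 1, High 2, Low 2 and Low 3 carry Combo_L000, which gives no single lane. Non-epithelial miRNAs were low in every group at the annotated start, and entries with any other start were not counted. The 5 listed mesenchymal and smooth muscle entries of 7 summed to 19.4 to 95.7 RPM and miR-145 was at 0. The 5 haematopoietic entries summed to 6.51 to 213 RPM with miR-142-3p at 0, the endothelial ones to 0 to 17.1 RPM, and miR-144-3p of the erythroid list was at 0. Group means of the haematopoietic sum were highest in Low (133 RPM) and Sublow (96.7), against 41.0 in Negative, 31.1 in High and 10.7 in Non-sorted. These means mix population with the miR-295-3p split, which the populations share unevenly. Of the haematopoietic entries, miR-150-5p was at 0 to 3.07 RPM in the libraries that list miR-295-3p. In the others it was at 22.6 to 74.2 RPM, except High 3, at 0. The part of such cells in the results was not tested.

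The family made up a larger share of the miRNA reads the brighter the sorted cells were. It took 6.58, 7.40 and 7.06% of the reads in the High libraries, 5.398, 5.511 and 4.992% in Low, 3.95, 3.74 and 3.93% in Sublow and 2.53, 2.54 and 2.98% in Negative. Non-sorted libraries stood at 3.02 and 2.77%. The 4 sorted populations did not overlap in this share, and Non-sorted lay beside Negative. This order was read against a large shift in a few other miRNAs. The abundant gut epithelial miRNAs miR-192, miR-194 and miR-215 took 59.9% of the reads in Negative, 44.5% in Sublow, 20.7% in Low and 17.8% in High as group means, and 56.2% in Non-sorted cells. Among the remaining reads the family held 8.55% ± 0.66 (SD, n = 3) in High, and 6.68% ± 0.42 in Low, 6.98% ± 0.32 in Sublow, 6.69% ± 0.67 in Negative (n = 3 each) and 6.66% ± 0.56 in Non-sorted (n = 2). Counted that way the High libraries were the only ones above 7.46%, at 7.83 to 9.12%, and the other groups overlapped. In sequencing of bulk cells, fewer cells that express a miRNA and less of it per cell cannot be told apart.

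**Figure D1:**
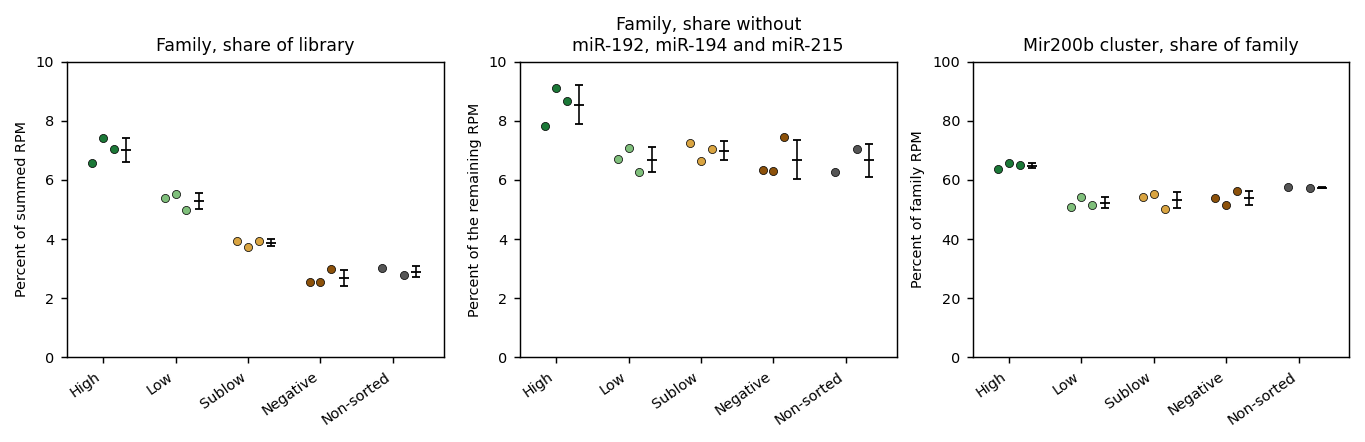
Points are libraries, and the bars beside them mean ± SD, for the family as a percent of all RPM (left), as a percent of the RPM left without miR-192, miR-194 and miR-215 (middle), and for the Mir200b cluster as a percent of the family (right). The left panel steps down from 7.01% in High to 2.68% in Negative, the middle one holds Low, Sublow, Negative and Non-sorted between 6.66 and 6.98%, and on the right High stands at 64.8% above the other groups.

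Of the 10 members, 8 were above 0 in every library and entered the tests, which covered 588 entries with at least 10 RPM in at least 3 libraries. The minor arms miR-429-5p and miR-200c-5p were listed only in Sublow 1 and Sublow 3, at 0.79 and 1.21 and at 0.98 and 1.36 RPM. They were at 0 elsewhere, also in Negative 3 and High 1. The smallest listed values there were 0.65 and 0.76 RPM, against 0.77 in Sublow 3. In the moderated F test of limma, 7 of the 8 tested members differed among the sorted populations, where 72.3% of all tested entries did. The exception was miR-141-5p, the least abundant of the 8 (adjusted p = 0.133).

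In the Mir200b cluster the 3 abundant 3p arms were highest in High, then fell through Low and Sublow to Negative. Among them miR-200a-3p (mmu-mir-200a-3p in the table) was the most abundant, ranked 11 of 534 annotated-start entries in High and 17 in Negative by its mean. Its libraries read 25018, 30316 and 27095 RPM in High, 15841, 18131 and 14736 in Low, 10903, 12091 and 9266 in Sublow, and 8225, 8105 and 10007 in Negative. Non-sorted cells had 10761 and 9429. High and Low each stood apart from all other groups, while Sublow, Negative and Non-sorted overlapped. For miR-200b-3p (mmu-mir-200b-3p) the values were 11082, 11551 and 11668 in High, 8042, 7937 and 7403 in Low, 7017, 5560 and 7495 in Sublow, 3047, 2813 and 4198 in Negative, and 3688 and 3708 in Non-sorted. Here Low and Sublow overlapped, and the largest drop by fold lay between Sublow and Negative. The third 3p arm, miR-429-3p (mmu-mir-429-3p), read 4896, 5609 and 5662 RPM in High, 2877, 3116 and 2828 in Low, 2761, 2074 and 2130 in Sublow, 1873, 1634 and 2151 in Negative, and 2393 and 2190 in Non-sorted. Its clear step was between High and Low, and Sublow overlapped both Negative and Non-sorted.

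The minor arms of this cluster were also highest in High. miR-200b-5p read 674, 658 and 911 RPM in High, 528, 485 and 487 in Low, 475, 592 and 515 in Sublow, 306, 274 and 271 in Negative, and 323 and 284 in Non-sorted. miR-200a-5p read 317, 422 and 501 RPM in High, 209, 267 and 227 in Low, 225, 284 and 240 in Sublow, 199, 228 and 195 in Negative, and 235 and 244 in Non-sorted. For miR-200a-5p only High stood apart, and Low, Sublow and Negative overlapped.

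In the Mir200c cluster the members moved differently from each other. miR-200c-3p (mmu-mir-200c-3p), ranked 11 to 15 in each group, read 20985, 21034 and 21181 RPM in High, 23725, 21913 and 21782 in Low, 17096, 15613 and 18720 in Sublow, 10761, 11442 and 12065 in Negative, and 11693 and 10427 in Non-sorted. Low was its highest group, slightly above High, and Negative and Non-sorted overlapped. miR-141-3p (mmu-mir-141-3p) read 2790, 4421 and 3577 RPM in High, 2744, 3241 and 2436 in Low, 986, 1129 and 896 in Sublow, 894, 848 and 926 in Negative, and 1139 and 1394 in Non-sorted. Its levels formed an upper pair of populations, High and Low, which overlapped, and a lower pair, Sublow and Negative, which also overlapped. miR-141-5p stayed near the filter, at 24.1, 35.9 and 15.3 RPM in High, 12.8, 16.6 and 22.7 in Low, 14.7, 11.1 and 15.2 in Sublow, 14.3, 10.4 and 14.6 in Negative, and 10.7 and 15.6 in Non-sorted.

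**Figure D2:**
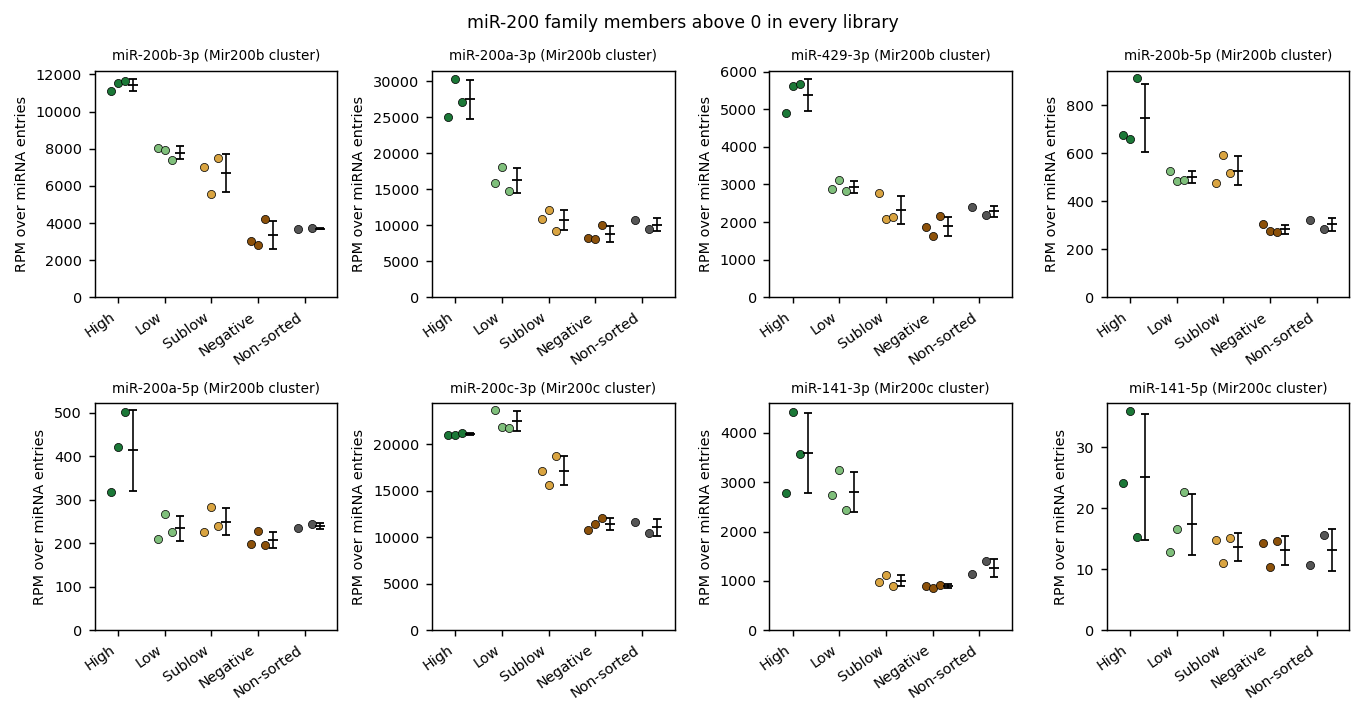
RPM over miRNA entries of the 8 members above 0 in every library, with a point per library and mean ± SD beside each group, on axes from 0. The Mir200b members are highest in High, miR-200c-3p lies at 20985 RPM or more in High and Low, and miR-141-3p splits into High and Low above 2436 RPM and Sublow and Negative at 1129 RPM or less.

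Between High and Low, the Mir200b cluster was higher in High as a block, while no rise was called for the members of the Mir200c cluster. All 5 tested members of the former passed the test as higher in High and 0 of 3 of the latter. Of all tested entries 28.1% passed, and 7.99% passed as higher in High. The median difference of the 8 members was 0.56 on the log2(value + 1) scale, against −0.11 over all entries. miR-429-3p was 1.83-fold higher (log2 difference 0.87 ± 0.13 SE, adjusted p = 4.16e-04 in limma), miR-200a-5p 0.80 ± 0.17 (0.00463), miR-200a-3p 0.76 ± 0.13 (0.00107), miR-200b-5p 0.56 ± 0.14 (0.0104) and miR-200b-3p 0.55 ± 0.14 (0.0130). miR-200c-3p differed by −0.09 ± 0.08 (adjusted p = 0.450), although its High libraries all lay below its Low libraries, and by 0.23 (adjusted p = 0.0534) after median-ratio rescaling. miR-141-3p differed by 0.34 ± 0.17 (adjusted p = 0.154), and passed without High 1 (0.51, adjusted p = 0.0358) and after median-ratio rescaling, in which each library is divided by its median ratio to the geometric mean of the libraries (0.67, adjusted p = 0.0144). miR-141-5p differed by 0.46 ± 0.34 (adjusted p = 0.343 in limma). Both miR-141 arms were thus higher in High by estimate, though not called with RPM as deposited. The 5 calls of the Mir200b cluster held under median-ratio rescaling, quantile normalization and a total taken without miR-192, miR-194 and miR-215. The share of all called entries that were higher in High went from 28.5% to 53.6% with the median-ratio factors and 43.3% with quantile normalization.

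Low and Sublow differed most in miR-141-3p. It was 2.80-fold lower in Sublow by group means (log2 difference of Low minus Sublow 1.48 ± 0.17 SE, adjusted p = 4.59e-05 in limma), whereas miR-200c-3p from the same cluster was 1.31-fold lower (0.39 ± 0.08, adjusted p = 0.00297). miR-200a-3p also fell, by 0.60 ± 0.13 (adjusted p = 0.00348). These were the 3 members called of 8, where 34.7% of all entries passed and 24.3% as higher in Low. The median over members was 0.33, below that of all entries, 0.43. miR-429-3p missed the threshold (0.35, adjusted p = 0.0546) and passed without Sublow 1, Negative 2 or Negative 3 (adjusted p = 0.0132, 0.0484 and 0.0435). Scaling decided the other calls: miR-141-3p stayed called under each scaling, at 1.08 with median-ratio factors and 0.96 with the total without miR-192, miR-194 and miR-215, while miR-200a-3p was at 0.20 and 0.08 and did not pass. miR-200c-3p turned to −0.0039 and −0.12. Under the same rescalings miR-200b-5p (−0.47 and −0.59) and miR-200a-5p (−0.49 and −0.61) passed as higher in Sublow. Of all calls 70.1% were higher in Low, 44.2% with median-ratio factors and 35.6% with the reduced total.

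High and Negative were the most distant pair. All 8 members were called higher in High, where 66.3% of all entries passed and 43.9% as higher, with a median of 1.45 over members and 0.57 over all entries. miR-141-3p was 4.04-fold higher by group means (log2 1.99 ± 0.17 SE), miR-200b-3p 3.41-fold (1.79 ± 0.14), miR-200a-3p 3.13-fold (1.65 ± 0.13), miR-429-3p 2.86-fold (1.52 ± 0.13) and miR-200c-3p 1.84-fold (0.88 ± 0.08), each with an adjusted p of at most 1.77e-06 in limma. miR-141-5p passed narrowly (0.83 ± 0.34, adjusted p = 0.0483), and lost the call when any of 11 of the 14 libraries was left out, with adjusted p up to 0.186 without High 2. With the library total taken without miR-192, miR-194 and miR-215, calls remained for miR-141-3p (0.96), miR-200b-3p, miR-200a-3p, miR-429-3p and miR-200b-5p, while miR-200c-3p turned to −0.15, miR-200a-5p to −0.06 and miR-141-5p to −0.15, none of the last 3 past the threshold. Of all calls 66.2% were higher in High, against 52.9% with median-ratio factors and 35.7% with the reduced total.

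Against Sublow, 7 of 8 members were called higher in High, where 50.5% of all entries passed and 28.1% as higher, with medians of 0.78 over members and 0.07 over all entries. miR-141-3p led at 1.82 ± 0.17 SE on the log2 scale, ahead of miR-200a-3p (1.36 ± 0.13) and miR-429-3p (1.22 ± 0.13), all with an adjusted p of at most 1.04e-05 in limma. miR-200b-3p (0.78), miR-200a-5p (0.71), miR-200b-5p (0.49) and miR-200c-3p (0.30, adjusted p = 0.00997) followed, and miR-141-5p did not pass (0.77, adjusted p = 0.0752; 0.0226 without High 3). miR-200b-5p was lost without Sublow 1 (adjusted p = 0.0518). With a lane term 4 calls were left. miR-200b-5p (0.52, adjusted p = 0.0799) and miR-200c-3p (0.36, adjusted p = 0.0938) no longer passed at differences no smaller than before, and miR-200a-5p was at 0.40 (adjusted p = 0.326 in limma). With the reduced total, 3 members stayed called higher in High: miR-141-3p, miR-200a-3p and miR-429-3p. miR-200b-3p (0.22, adjusted p = 0.264), miR-200a-5p (0.14, adjusted p = 0.548) and miR-200b-5p (−0.0739, adjusted p = 0.678) did not pass. Also, with that total miR-200c-3p passed in the other direction (−0.27, adjusted p = 0.0183 in limma). Of all calls 55.6% were higher in High, and 30.6% with the reduced total.

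Low against Negative gave 6 calls of 8, all higher in Low, where 66% of all entries passed and 49.5% as higher, so the members did not stand out (median 0.85, and 0.90 over all entries). miR-141-3p (1.65 ± 0.17 SE), miR-200b-3p (1.24 ± 0.14), miR-200c-3p (0.98 ± 0.08), miR-200a-3p (0.89 ± 0.13), miR-200b-5p (0.82 ± 0.14) and miR-429-3p (0.65 ± 0.13) passed, with adjusted p from 7.43e-07 to 9.1e-04 in limma. With median-ratio factors only miR-141-3p of these stayed called, at 0.77, and miR-200a-5p passed as lower in Low (−0.70, adjusted p = 0.00356). Of all calls 75% were higher in Low, and 49.1% with median-ratio factors.

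Between Sublow and Negative, 3 of 8 members were called higher in Sublow, where 35.5% of all entries passed and 26.9% as higher, with medians of 0.29 over members and 0.37 over all entries. These were miR-200b-3p (1.01 ± 0.14 SE, adjusted p = 2.07e-04 in limma), miR-200b-5p from the same hairpin (0.89 ± 0.14, adjusted p = 4.33e-04) and miR-200c-3p (0.58 ± 0.08, adjusted p = 2.01e-04). miR-200a-3p and miR-429-3p were at 0.29 and 0.30 (both adjusted p = 0.101) and passed without Negative 3 (both adjusted p = 0.0437), which made 5 calls. miR-141-3p was at 0.17 ± 0.17 (adjusted p = 0.500). With median-ratio factors miR-200c-3p was no longer called (0.10), and of all calls 47.6% were higher in Sublow, against 75.6%. With quantile normalization miR-200b-3p lost its call (0.53, adjusted p = 0.0793 in limma), as did miR-200c-3p (−0.0301). In that setting miR-429-3p passed as higher in Sublow (0.42, adjusted p = 0.0103) and miR-200a-3p as lower (−0.45, adjusted p = 0.0237 in limma).

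Between Non-sorted and Negative libraries limma called 0 of 8 members, where 3.74% of all entries passed. The ratio of the cluster sums, given below, did not overlap between these groups. The ratios of miR-200c-3p to miR-200b-3p and of miR-141-3p to miR-200a-3p did overlap. The median was 0.18 over members and 0.11 over all entries, and 1 member, miR-141-3p, had an unadjusted p under 0.05 (0.50 ± 0.19 SE, adjusted p = 0.239 in limma). With 2 Non-sorted libraries, a difference of this size was not resolved.

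**Figure D3:**
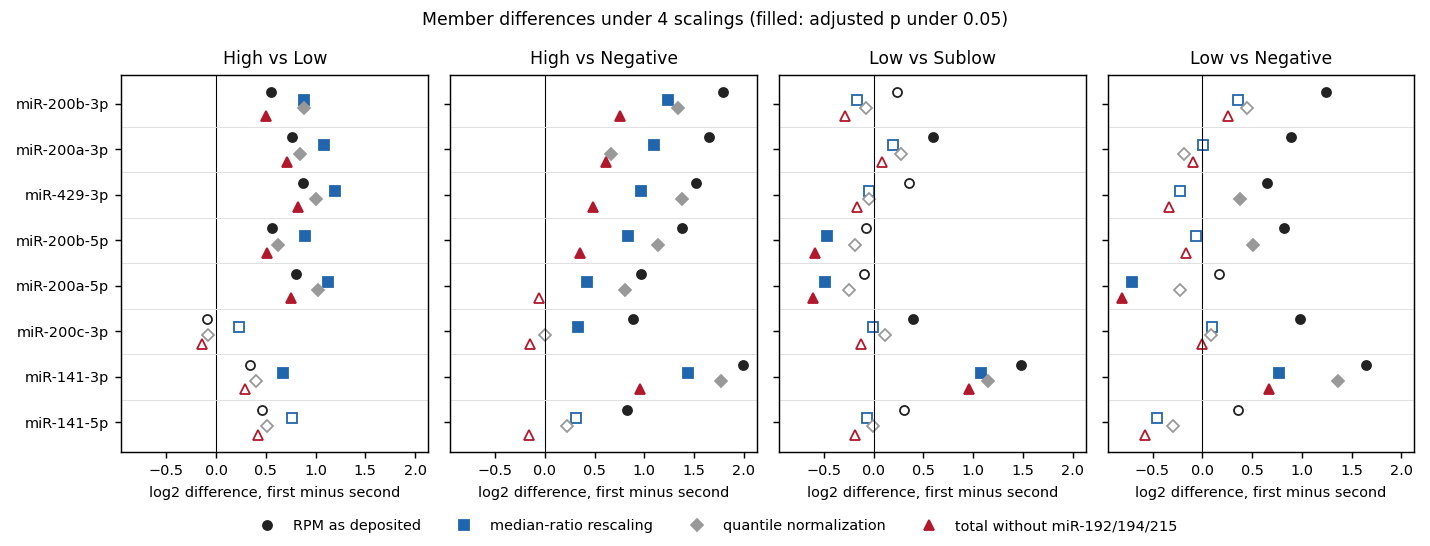
Log2 differences (first group minus second) of the 8 tested members in 4 comparisons, under RPM as deposited and 3 other scalings of the libraries. Filled symbols have a limma adjusted p under 0.05. The 5 members of the Mir200b cluster are filled on the right of 0 under all scalings in High vs Low. In High vs Negative this holds for miR-141-3p, miR-200b-3p, miR-200a-3p, miR-429-3p and miR-200b-5p. In Low vs Sublow and Low vs Negative it holds for miR-141-3p only, and most other members move to or across 0.

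Ratios of members within a library do not depend on how its total was scaled. The ratio of the cluster sums set High apart from the other groups, while ratios within a cluster varied too, as given below. In High the Mir200b cluster summed to 1.76, 1.90 and 1.85 times the Mir200c cluster, against 1.04, 1.19 and 1.06 in Low, 1.18, 1.23 and 1.001 in Sublow, 1.17, 1.06 and 1.29 in Negative, and 1.35 and 1.34 in Non-sorted. High stood above every other library, and Low, Sublow and Negative overlapped. Non-sorted lay between, above every Low, Sublow and Negative library. As a share of the family the Mir200b cluster held 64.8% ± 0.88 (SD, n = 3) in High and 52.2% ± 1.83 in Low, 53.1% ± 2.72 in Sublow and 53.9% ± 2.46 in Negative. The sums are a description with no test. Within the 4 libraries named Combo_L000 the log2 ratio of the sums averaged 0.87 in High and 0.17 in Low. In libraries that list miR-295-3p it was 0.93 in High, 0.25 in Low, 0.30 in Sublow and 0.16 in Negative, and in the others 0.85, 0.07, 0.12 and 0.37.

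The closest relatives, which share a seed across the clusters, were then compared directly. miR-200c-3p was 1.89, 1.82 and 1.82 times as abundant as miR-200b-3p in High, 2.95, 2.76 and 2.94 times in Low, 2.44, 2.81 and 2.50 times in Sublow, and 3.53, 4.07 and 2.87 times in Negative. All 3 High libraries lay below the other 9 sorted libraries, and Low overlapped both Sublow and Negative. An exact permutation test of the F statistic over the 12 sorted libraries gave p = 6.49e-04 (adjusted p = 0.00130 over the 8 ratios tested, smallest possible p 6.49e-05). The ratio of miR-141-3p to miR-200a-3p was 0.112, 0.146 and 0.132 in High, 0.173, 0.179 and 0.165 in Low, 0.0904, 0.0934 and 0.0967 in Sublow, and 0.109, 0.105 and 0.0926 in Negative. Low was highest, High intermediate, and Sublow and Negative, the only overlapping pair, lowest (exact permutation p = 1.95e-04, adjusted p = 0.00130). So the Mir200c cluster weighed more against the Mir200b cluster in Low than in High for both seeds, by 0.65 and 0.42 on the log2 scale. Against Sublow the seeds parted: from Low to Sublow the miR-200c-3p ratio differed by 0.16 on the log2 scale with overlapping libraries, and the miR-141-3p ratio by 0.88 with none. Pairs of populations are given as values only, and an exact permutation of 3 libraries against 3 cannot give a two-sided p below 0.1. Within the Combo_L000 libraries of High and Low the miR-200c-3p ratio averaged 0.89 and 1.51 on the log2 scale and the miR-141-3p ratio −2.97 and −2.54. In the lane shared by Low 1, Sublow 1, Sublow 3 and Negative 3 the miR-141-3p ratio was −2.53 in Low, −3.42 in Sublow and −3.43 in Negative.

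**Figure D4:**
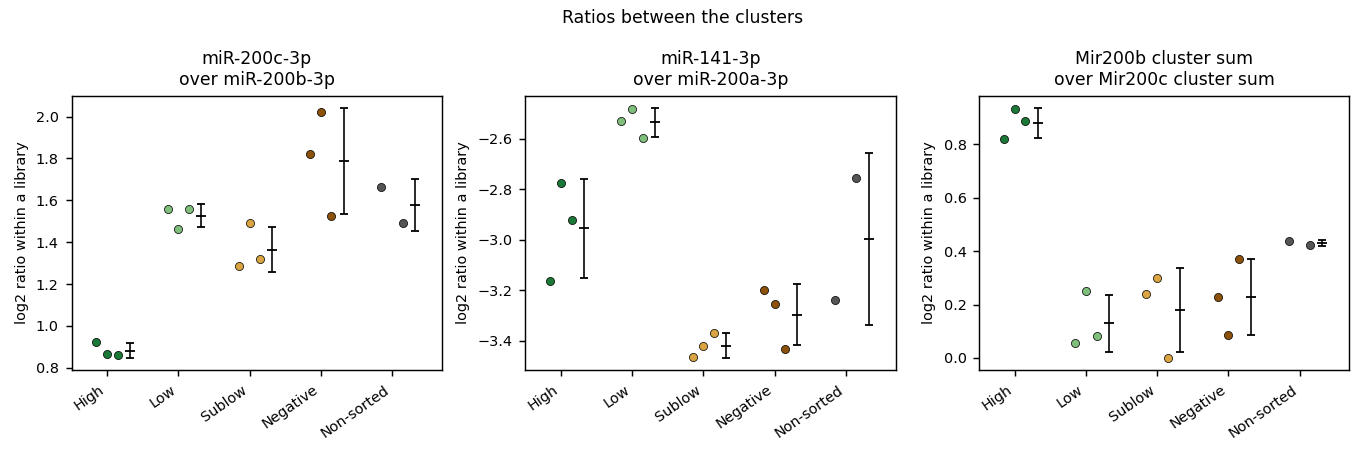
Log2 ratios within each library between members of different clusters, with a point per library and mean ± SD beside each group. On the left High averages 0.88 and the other sorted populations 1.36 to 1.79, in the middle Low averages −2.54 and Sublow −3.42, and on the right the cluster sums average 0.88 in High and 0.13 to 0.23 in Low, Sublow and Negative.

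Members of 1 cluster also kept no fixed proportion to each other. In the Mir200c cluster miR-141-3p was 0.133, 0.210 and 0.169 times as abundant as miR-200c-3p in High, 0.116, 0.148 and 0.112 in Low, 0.0577, 0.0723 and 0.0479 in Sublow, and 0.0831, 0.0741 and 0.0768 in Negative (exact permutation p = 3.25e-04, adjusted p = 0.00130). High and Low overlapped, and both lay above Sublow and Negative, which did not overlap each other. In the Mir200b cluster the mean ratio of miR-429-3p to miR-200b-3p was 0.471 ± 0.025 (SD, n = 3) in High, 0.377 ± 0.018 in Low, 0.350 ± 0.058 in Sublow and 0.569 ± 0.052 in Negative (exact permutation p = 5.84e-04, adjusted p = 0.00130). Negative was above High, and High above the overlapping Low and Sublow. For miR-200a-3p over miR-200b-3p the means were 2.40 ± 0.20, 2.08 ± 0.18, 1.65 ± 0.48 and 2.66 ± 0.25 in the same order (SD, n = 3; exact permutation p = 0.0245, adjusted p = 0.0280). That call was lost without High 3, Negative 1 or Negative 2 (adjusted p = 0.0508, 0.0650 and 0.0661), and Sublow 2, at 2.17, lay apart from Sublow 1 and 3, at 1.55 and 1.24.

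By seed, the 3p arms with miR-200a-3p and miR-141-3p made up 45.0% of the summed 3p arms in High and 31.1% in Sublow, with Low (36.4%), Negative (36.7%) and Non-sorted (40.0%) between. The High libraries, at 42.9 to 47.6%, lay above all others, and Sublow ranged from 26.4 to 36.3%. The split is a description with no test.

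Arm ratios of a hairpin were not constant either. The 5p arm of Mir200a was 0.0127, 0.0139 and 0.0185 times its 3p arm in High, 0.0132, 0.0147 and 0.0154 in Low, 0.0207, 0.0235 and 0.0259 in Sublow, and 0.0242, 0.0282 and 0.0195 in Negative. High and Low lay below Sublow and Negative with no overlap (exact permutation p = 0.0103, adjusted p = 0.0164). The 5p arm of Mir141 showed the same division, with means of 0.00701 ± 0.0024 (SD, n = 3) in High, 0.00636 ± 0.0026 in Low, 0.0139 ± 0.0037 in Sublow and 0.0146 ± 0.0021 in Negative (exact permutation p = 0.0238, adjusted p = 0.0280). It was lost without Negative 1 (adjusted p = 0.0570), and miR-141-5p lay at only 10.4 to 35.9 RPM. For Mir200b the arm ratio averaged 0.0653, 0.0642, 0.0810 and 0.0875 in the same order and did not pass (exact permutation p = 0.250, adjusted p = 0.250).

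**Figure D5:**
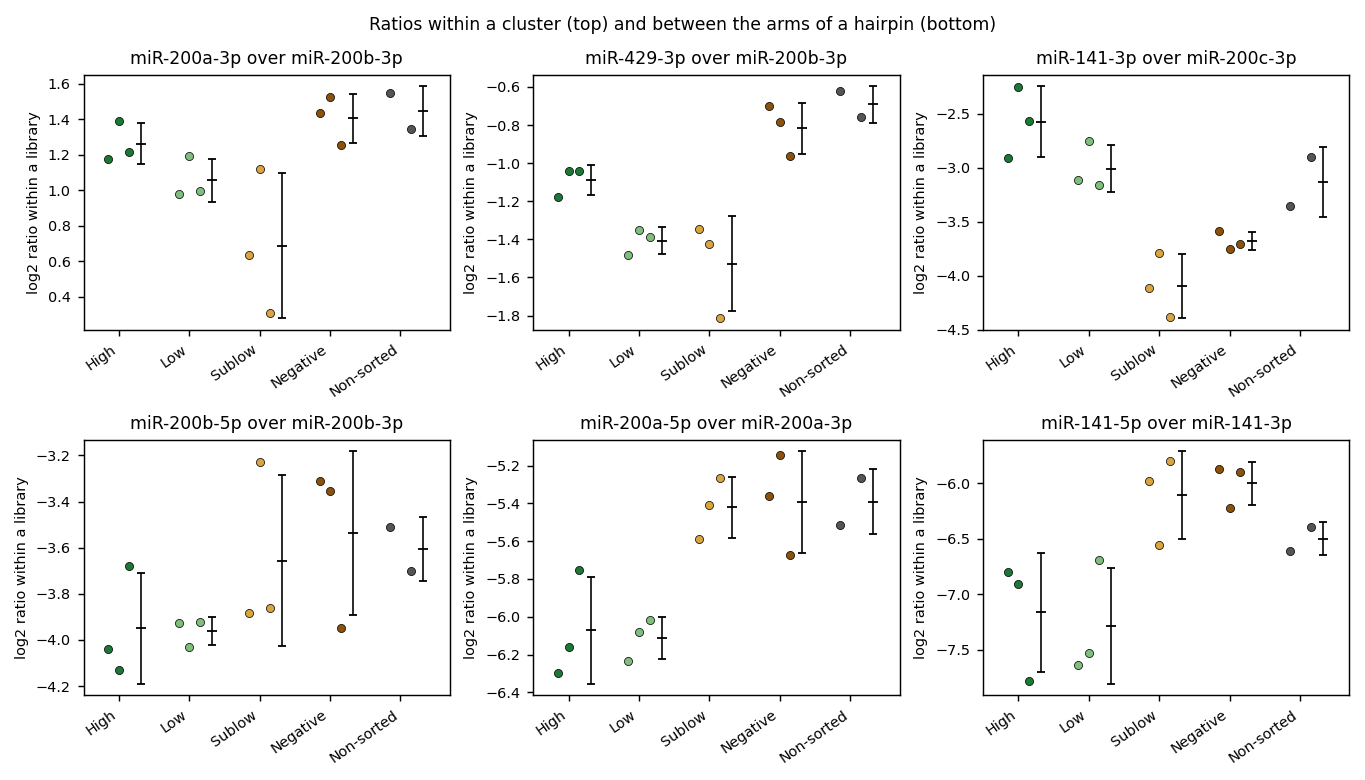
Log2 ratios within each library between members of 1 cluster (top) and between the 5p and 3p arm of 1 hairpin (bottom), with a point per library and mean ± SD beside each group. miR-141-3p over miR-200c-3p falls from −2.58 in High to −4.10 in Sublow, and the Mir200a and Mir141 arm ratios are higher in Sublow and Negative than in High and Low.

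Entries with a shifted start numbered 55 for the family, of which 41 were above 0 and 17 were tested. Of the 17, 5 were called higher in High than in Low (7.99% of all entries were), 13 in High than in Sublow (28.1%) and 15 in High than in Negative (43.9%). Further, 6 were higher in Low than in Sublow (24.3% of all entries), 13 in Low than in Negative (49.5%) and 4 in Sublow than in Negative (26.9%), with 0 called lower in any of these 6 comparisons. Shifted reads were 9.07 to 11.9% of all miR-200b-3p reads, the highest share among the 5 3p arms, and 4.28 to 5.06% of miR-200c-3p reads, its closest relative. For 6 of the 8 members the leading shifted form was the one marked +1, for miR-141-3p it was −1, and for miR-141-5p the −2 form exceeded the annotated one in some libraries (shifted share 18.9 to 61.8%).

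Outside the family, the annotated-start entries whose 5 group means lay nearest to each cluster's sum were found by the root mean square difference of centred log2 means. For the Mir200b sum these were miR-532-5p (0.18), miR-27b-5p (0.18), miR-30c-2-3p (0.19), and miR-26a-2-5p and miR-26a-1-5p, 2 hairpin copies of the same miRNA (0.20 each), against a median of 0.79 over 267 candidates. For the Mir200c sum they were let-7c-1-5p and let-7c-2-5p, also 2 hairpin copies of the same miRNA (0.07 and 0.08), miR-361-5p (0.11), miR-151-5p (0.12) and miR-30d-5p (0.13), against a median of 0.68. The let-7c entries were nearer to this sum than miR-141-3p, itself a member, at 0.48. miR-141-3p was nearer to the Mir200b sum, at 0.35, while the other 3p arms were nearer to the sum of their own cluster, which they are part of. The Mir200c sum is mostly miR-200c-3p, which lay at 0.05 from it, and the let-7c entries were picked for being nearest.

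Other miRNAs tied to epithelial state moved in both directions. Of 5 tested epithelial-state miRNAs outside the family, 0 were called higher and 2 lower in High than in Low, where 20.1% of all entries were lower: miR-203-3p, which restrains the proliferation of epithelial progenitors, at 313, 337 and 333 RPM in High and 1094, 1321 and 965 in Low (log2 −1.77 ± 0.22 SE, adjusted p = 9.88e-05 in limma), and miR-34a-5p, a p53 target (−1.63 ± 0.36, adjusted p = 0.00517). miR-203-3p climbed further to 1857, 1461 and 1908 RPM in Sublow and 2473, 2663 and 2402 in Negative. This was the reverse of the order of the miR-200 family in its share of all reads. Against Negative, 2 were higher and 2 lower in High, where 66.3% of all entries passed and 43.9% as higher. In Low 2 were higher and 1 lower (66% passed and 49.5% as higher), and in Sublow 2 higher and 0 lower (35.5% and 26.9%). The 2 higher ones were the same in each, miR-34c-5p and miR-205-5p. miR-34c-5p, of the same seed family as miR-34a-5p, read 41.0, 45.5 and 26.4 RPM in High and 28.2, 15.1 and 24.3 in Low. It fell to 8.36, 12.4 and 5.53 in Sublow (adjusted p = 0.0181 in limma for High vs Sublow, 0.127 for Low vs Sublow), and in Negative it was listed at 0 in 2 libraries and at 2.37 in the third. miR-205-5p, which also represses Zeb1 and Zeb2, was 2.04 ± 0.35 SE higher in High than in Negative on the log2 scale and 2.81 ± 0.35 higher in Low (adjusted p = 2.92e-04 and 2.5e-05 in limma). Of 5 tested miRNAs linked to mesenchymal transition, 4 were called lower in High than in Low (20.1% of all entries) and 0 higher: miR-222-3p (−2.33 ± 0.27), miR-221-3p (−1.72 ± 0.18), miR-21-5p (−1.18 ± 0.15) and miR-10b-5p (−0.88 ± 0.26, adjusted p = 0.0255). Between Low and Negative 4 of these 5 were called higher in Low, as were 49.5% of all entries, in the direction of the family members. miR-10b-5p was at 464.9, 615.2 and 564.6 RPM in Low and 35.02, 67.96 and 53.74 in Negative (log2 3.41 ± 0.26 SE, adjusted p = 2.67e-07 in limma). The others were miR-222-3p (2.89 ± 0.27), miR-221-3p (0.84 ± 0.18) and miR-155-5p (2.09 ± 0.80, adjusted p = 0.0366 in limma). miR-155-5p is also among the haematopoietic entries, whose summed group mean was highest in Low.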

How the data were processed

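Small RNA libraries were made with a TriLink CleanTag kit, per the labels. The authors deposited 1 table of RPM values over miRNA entries. The submitters' processing notes name mm9. The aligner and the counter were not given in the sources used here. A sign and number after a name (1496 entries) were read as a shifted start, which the header does not define. Low values were whole multiples of 1 read within 0.1 read in 71.2 to 85.4% of cases, so reads were not recovered and no count test was run.

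Values were analysed as log2(value + 1), which understates changes of low entries. limma 3.58.1 in R 4.3.3 fitted 5 groups over 14 libraries with a mean-variance trend, with two-sided tests and Benjamini-Hochberg adjustment over 588 entries at a threshold of 0.05. Log2 ratios of members (1 added to each value) were compared with exact permutation tests over 369600 assignments of the 12 sorted libraries, adjusted over 8 ratios. Python 3.11.15 and matplotlib 3.10.9 were used for the ratios and figures. Both procedures were tested on simulated data. All members, the 5 nearest entries per cluster and the list members that passed were to be named. The members and lists were chosen with earlier results of these data known. Alternatives were pseudocounts, the filter, scalings, terms for lane and replicate number, the trend, the libraries fitted and summed shifted starts. The lane term took Combo_L000, which names no single lane, as a level of its own. The total without miR-192, miR-194 and miR-215 and the miR-295-3p split were chosen after seeing the data.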

Additional observations from a re-analysis of the deposited data

How the results depend on the processing

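The 8 tested members and 7 pairs of groups gave 56 member differences, which changed most with the scaling of the libraries. Of them, 43 kept their call with its direction, or stayed uncalled, with median-ratio factors, 44 with quantile normalization, 38 with the total without miR-192, miR-194 and miR-215, and 49 with a lane term. At least 55 did so with each of the following: another pseudocount, no filter, no trend, only the compared groups, summed shifted starts and the miR-295-3p term. Among the differences that stayed uncalled, the sign changed in 11 with median-ratio factors, 9 with quantile normalization, 11 with the reduced total, 5 with the lane term, 2 with summed shifted starts and 1 with the miR-295-3p term. The causes were not tested.

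These counts of called members moved by over 1.5 times. In Low vs Negative 2 passed with median-ratio factors (1 of them lower in Low), 3 with quantile normalization and 2 with the reduced total (1 of them lower in Low). In Low vs Sublow 1 passed with quantile normalization. In High vs Sublow 4 passed with a lane term and 4 with the reduced total (1 of them lower in High), and in High vs Negative 5 with the reduced total. A count can also hold while its members change. In Sublow vs Negative 3 passed with quantile normalization, 1 of them lower in Sublow and miR-200b-3p not among them. Leaving out single libraries gave 5 to 6 in High vs Low, 6 to 8 in High vs Sublow, 7 to 8 in High vs Negative, 3 to 4 in Low vs Sublow, 6 in Low vs Negative, 3 to 5 in Sublow vs Negative, 0 in Non-sorted vs Negative and 7 to 8 in the F test. The exact permutation p ranged from 1.3e-04 to 0.00214 for miR-200c-3p over miR-200b-3p and from 1.95e-04 to 0.00149 for miR-141-3p over miR-200a-3p.

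Of the differences called with RPM as deposited or with the other scaling, these log2 values changed sign. With median-ratio factors, miR-200c-3p was at −0.0039 in Low vs Sublow, and in Low vs Negative miR-200b-5p was at −0.0586, miR-200a-5p at −0.70 and miR-429-3p at −0.23. With quantile normalization, miR-200a-3p was at −0.18 in Low vs Negative and −0.45 in Sublow vs Negative (adjusted p = 0.0237 in limma), and miR-200c-3p at −0.0301 in Sublow vs Negative. With the reduced total, High vs Sublow gave −0.0739 for miR-200b-5p and −0.27 for miR-200c-3p, and High vs Negative −0.0605 for miR-200a-5p, −0.15 for miR-200c-3p and −0.15 for miR-141-5p. Low vs Sublow gave −0.12 for miR-200c-3p. Low vs Negative gave −0.17 for miR-200b-5p, −0.10 for miR-200a-3p, −0.81 for miR-200a-5p, −0.34 for miR-429-3p and −0.0068 for miR-200c-3p.

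Replicate numbers were not taken to pair the libraries. Each number goes with 1 prefix of the sample names, whose meaning is not stated. Deviations of same-numbered libraries correlated at −0.354 to 0.776 (median 0.329), those of other libraries had a median of −0.106, and 11 of 14 libraries matched best with 1 of their own number. Deviations were taken from group means, so those of a group sum to 0 and the correlations depend on each other. In High, Low and Sublow the miR-295-3p split sets replicate 2 against 1 and 3, so it overlaps with the replicate number. The miR-295-3p split divided the deviations more sharply. Libraries on the same side of it correlated at −0.11 to 0.776 (median 0.375), and those on different sides at −0.837 to 0.11 (median −0.346). What this split stands for is not stated. With the replicate block 5, 7, 7, 3, 6, 3 and 0 members passed in the comparisons in the order High vs Low, High vs Sublow, High vs Negative, Low vs Sublow, Low vs Negative, Sublow vs Negative and Non-sorted vs Negative, and 7 in the F test. The block ended the call of miR-141-5p in High vs Negative (adjusted p = 0.0679 in limma). With labels permuted within replicate number the exact p was 0.00694 for the miR-200c-3p ratio and 0.00347 for the miR-141-3p ratio, and the Mir141 arm ratio no longer passed (adjusted p = 0.0794). miR-429-5p and miR-200c-5p were at 0, below the smallest listed value, in 12 of 14 libraries.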
